A study of Mus musculus with 12 samples.

Results

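The genes described here encode subunits of voltage-gated sodium channels, measured by RNA-seq in the brains of Nsd2 KO and WT mouse embryos at E15.5. They were chosen by name as 8 of the 46078 genes in the count tables. Of these, 5 encode the pore-forming α subunits (Scn1a, Scn2a1, Scn3a, Scn8a and Scn9a, where Scn2a1 is the older symbol of Scn2a) and 3 encode auxiliary β subunits (Scn2b, Scn3b and Scn4b). All 8 had enough counts to be tested in every comparison. The groups were WT male, KO male, WT female and KO female, each with 3 libraries and all on the C57BL/6 background. The KO alleles lack the whole Nsd2 coding sequence in every cell of the embryo, and the WT embryos carry the intact gene. The authors call the libraries of a group biological replicates, while the labels do not say that each came from a different embryo. The p-values measure only the spread between these libraries.

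A voltage-gated sodium channel opens when the membrane of a neuron depolarises, and the sodium current it passes forms the upstroke of the action potential. The α subunit holds the pore, the voltage sensors and a gate that closes the pore from inside the cell soon after opening. The β subunits are cell adhesion proteins that span the membrane, and they alter the gating and the surface level of the pore. In the rodent brain Scn3a and Scn2a are known as the channels of embryonic neurons, Scn8a and Scn1a as channels that gain in importance after birth, and Scn9a as a channel of peripheral sensory neurons.

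The coding sequences of the pore genes are alike, so short reads of these genes can be confused. Over whole transcripts of the GENCODE annotation on GRCm38, 3.85% of the 75-base stretches of Scn3a were also found in another sodium channel gene, against 2.8% for Scn2a1, 2.66% for Scn9a and 1.88% for Scn1a. Scn8a and the 3 β genes shared no such stretch, so the uncertainty of read assignment between family members applied, by this measure, to the 4 pore genes of chromosome 2 only.

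These 4 pore genes lie in 1 cluster on chromosome 2. Scn3a spans 65457118 to 65567627, Scn2a1 65620771 to 65767447, Scn1a 66270778 to 66440840 and Scn9a 66480080 to 66634962, a stretch of 1177.8 kb in all. Scn8a lies alone on chromosome 15 (100869858 to 101045938). The 3 β genes lie on chromosome 9, where Scn2b (45117782 to 45130070) and Scn4b (45138395 to 45154152) are close neighbours and Scn3b (40269217 to 40291618) lies apart.

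The libraries held 40398665 to 59304196 counts each. Nsd2, named Whsc1 in the tables, was at 351 to 407 CPM (counts scaled to the library total, after TMM) in WT libraries and at 0.909 to 2.67 CPM in KO libraries. Several libraries stood apart in genes that bear on the channels. Prph, a neurofilament protein of peripheral neurons, was at 67.4 CPM in WT male 2, at 36.9 CPM in WT female 3, at 26.1 CPM in KO female 2 and at 2.23 to 13.8 CPM in the other 9 libraries. Hoxa5, a gene of the hindbrain and spinal cord, was at 13.2 to 53.9 CPM in 6 libraries (WT male 2 and 3, KO male 2, WT female 3, KO female 2 and 3) and under 1 CPM in the other 6, called Hoxa5-low libraries here.

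Scn3b, Scn3a and Scn2a1 made up most of the sodium channel RNA in these brains. To compare genes of unequal length, the CPM of each was divided by the kilobases of its exons. Over the 12 libraries, Scn3b was at 30.2 ± 4.75 CPM per kb (SD, n = 12), Scn3a at 11.6 ± 1.45, Scn2a1 at 8.61 ± 0.967, Scn8a at 3.17 ± 0.473, Scn2b at 2.87 ± 0.368, Scn9a at 1.43 ± 0.611, Scn1a at 1.41 ± 0.269 and Scn4b at 0.113 ± 0.0602. Each gene lay above the next in this order in 12 of 12 libraries, with 2 exceptions. Scn8a was above Scn2b in 10 of 12 libraries, and Scn9a above Scn1a in 6 of 12. Differences between genes were not tested. Dividing by the longest transcript instead put Scn8a at 4.36 and Scn2b at 2.87 CPM per kb, in the same order. It put Scn1a at 1.87 and Scn9a at 1.85 CPM per kb, in the opposite order.

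**Figure D1:**
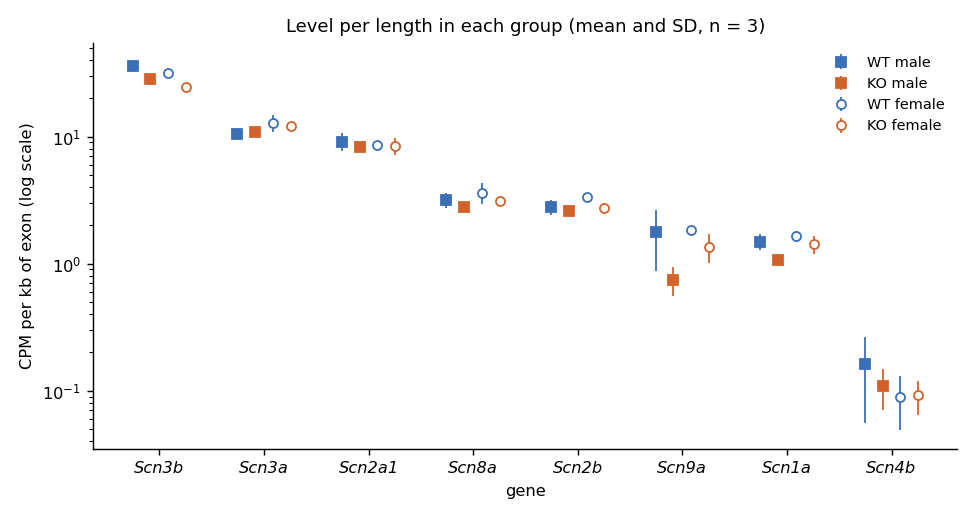
Mean level per length of the 8 genes in each group (CPM per kb of exon, log axis, n = 3 libraries a group). Squares are male and circles female groups, blue is WT and orange KO, and bars are SD. Scn3b is the highest gene in every group and Scn4b, at 0.0892 to 0.161 CPM per kb, the lowest.

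Scn3a and Scn2a1 together held the greater part of the pore RNA. Of the summed CPM per kb of the 5 pore genes, Scn3a took 40.6% to 45.7% in the group means, Scn2a1 30.05% to 34.97%, Scn8a 11.7% to 12.6% and Scn1a 4.54% to 5.78%. Scn9a took 6.54% ± 2.22 (SD, n = 3) in WT males and 3.15% ± 0.721 in KO males, 6.51% ± 0.7 in WT females and 5.13% ± 1.14 in KO females. Of the 3 β genes, Scn3b took 89.6% to 92.4% of the sum in every group.

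KO was compared with WT within each sex, and then over the 12 libraries together in a fit that also held sex, by edgeR's quasi-likelihood test. A gene was called when its Benjamini-Hochberg adjusted p over all genes tested was under 0.05. Over both sexes 1 of the 8 members was called lower and 0 higher, where 1.52% of all genes tested were called lower and 0.374% higher. That gene was Scn3b. All 8 log2 fold changes were below 0, with a median of −0.25 against 0.002 for all genes tested, but those of Scn2a1, Scn3a and Scn4b lay near 0 for their error and passed to the other side of it in 2, 2 and 4 of the alternatives tried. An unadjusted p under 0.05 was found for 5 members (Scn1a, Scn8a, Scn9a, Scn2b and Scn3b) and for 2708 of the 19767 genes tested.

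In males 0 members were called, where 0.337% of genes were lower and 0.123% higher, and in females 0 members were called, where 0.00535% of genes were lower and 0.0107% higher. In each sex 3 members had an unadjusted p under 0.05 in edgeR's test (2230 of 18671 genes in males and 1398 of 18709 in females did so), and DESeq2 called 1 member lower, Scn1a in males and Scn3b in females, where it called 2.1% of genes lower in males and 0.817% in females. No member was called for a difference of the KO effect between the sexes (interaction term, 0 of 8 called by edgeR, 0 with an unadjusted p under 0.05 and 0 by DESeq2, where edgeR called 0% of all genes).

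**Figure D2:**
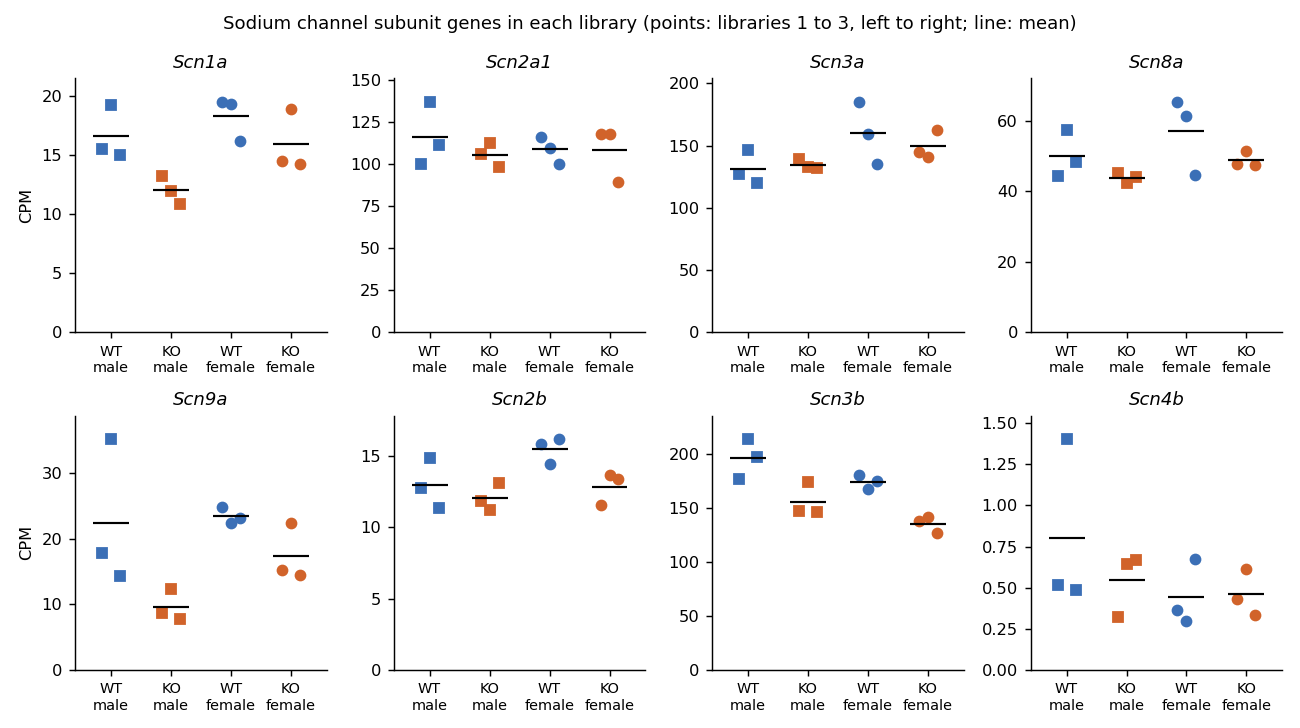
CPM of the 8 genes in each library, from 0. Squares are male and circles female libraries, blue is WT and orange KO, points run from library 1 to 3 and lines are means of 3. Every KO library of Scn3b lies below every WT library of its sex, and WT male 2 is the highest library of Scn9a and Scn4b.

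Among the pore subunits, Scn3a, the main channel of embryonic neurons, was at 127, 147 and 120 CPM in WT males and at 139, 133 and 132 CPM in KO males. WT females held 186, 159 and 136 CPM and KO females 145, 141 and 163 CPM. The genotypes overlapped in both sexes. The log2 fold change over both sexes was −0.03 (SE 0.0785, 95% interval −0.20 to 0.14, edgeR adjusted p = 0.906).

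Scn2a1 encodes the channel that first fills the initial segment of the axon. It was at 100, 137 and 111 CPM in WT males and at 106, 112 and 98.3 CPM in KO males. In females it was at 116, 109 and 100 CPM in WT and at 118, 118 and 89.3 CPM in KO. These values overlapped as well, with a log2 fold change of −0.07 over both sexes (SE 0.09, 95% interval −0.27 to 0.12, edgeR adjusted p = 0.788).

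Scn8a, which replaces Scn2a at mature initial segments and nodes, was at 44.4, 57.3 and 48.2 CPM in WT males and at 45.1, 42.3 and 44.05 CPM in KO males. WT females held 65.4, 61.2 and 44.7 CPM and KO females 47.6, 51.4 and 47.5 CPM. The lowest WT library lay within the KO range in males and below it in females. The log2 fold change over both sexes was −0.21 (SE 0.0889, edgeR adjusted p = 0.317).

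Scn1a, the channel of fast-spiking inhibitory neurons, was at 15.53, 19.3 and 14.998 CPM in WT males and at 13.2, 11.9 and 10.8 CPM in KO males. In females it was at 19.5, 19.3 and 16.2 CPM in WT and at 14.5, 18.9 and 14.2 CPM in KO. Every KO male lay below every WT male, whereas KO female 2 lay among the WT females. The log2 fold change was −0.47 in males (SE 0.126, adjusted p = 0.224), −0.21 in females (SE 0.146, adjusted p = 0.777) and −0.34 over both sexes (SE 0.103, adjusted p = 0.136, all by edgeR). Without KO female 2 the value over both sexes was −0.42 and passed the threshold (edgeR adjusted p = 0.0359).

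Scn9a had the largest log2 fold change of the members, and its spread was wide. It was at 17.9, 35.3 and 14.3 CPM in WT males and at 8.66, 12.3 and 7.74 CPM in KO males. In females it was at 24.8, 22.5 and 23.2 CPM in WT and at 15.2, 22.5 and 14.5 CPM in KO. Every KO library lay below every WT library of its sex, but by a small margin in females, where KO female 2 was at 22.46 CPM and WT female 2 at 22.47 CPM. The log2 fold change was −1.24 in males (SE 0.383, adjusted p = 0.322), −0.44 in females (SE 0.169, adjusted p = 0.628) and −0.84 over both sexes (SE 0.246, 95% interval −1.38 to −0.30, adjusted p = 0.140, all by edgeR). The difference between the sexes was −0.80 (SE 0.439, edgeR adjusted p = 0.910). DESeq2 called Scn9a over both sexes (adjusted p = 0.0068), as did edgeR's likelihood ratio test (adjusted p = 0.0344). These tests called 2.97% and 2.26% of all genes lower.

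WT male 2, the highest library of Scn9a, was also the highest of the 12 in channel genes and markers of peripheral sensory neurons. Scn10a, a channel of pain-sensing neurons, was at 8.10 CPM there, at 2.85 CPM in WT female 3, at 1.62 CPM in KO female 2 and at 0 to 0.815 CPM elsewhere. Scn7a, a sodium channel gene of peripheral neurons and glia that lies next to Scn9a, was at 10.9 CPM in WT male 2, at 3.65 CPM in WT female 3, at 3.13 CPM in KO female 2 and at 0.223 to 1.29 CPM in the other 9. Trpv1, the capsaicin receptor of pain-sensing neurons, was at 1.07, 0.606 and 0.517 CPM in these 3 libraries and at most 0.16 CPM in the others, and Avil, an actin-binding protein of sensory ganglia, at 12.9, 4.21 and 3.10 CPM and at most 2.23 CPM in the others. In the list of 8 peripheral sensory neuron markers, Prph, Avil, Trpv1 and Calca were highest in WT male 2, and Isl1, Prdm12 and Pou4f1, which are also transcribed within the brain, were not. The summed level of the list was 57.2 to 156 CPM in WT males, 66.3 to 74.5 in KO males, 67.2 to 118 in WT females and 55.2 to 100.1 in KO females, and none of the 8 was at 0 in every library.

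Without WT male 2 the log2 fold change of Scn9a was −0.75 in males (edgeR adjusted p = 0.395) and −0.57 over both sexes (edgeR adjusted p = 0.103). With the mean level of the sensory neuron markers as a covariate, an alternative added after the values were seen, it was −0.64 over both sexes (edgeR adjusted p = 0.0460). In the Hoxa5-low libraries, which leave out all 3 libraries with high Prph, it was −0.88 (edgeR adjusted p = 0.0688).

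**Figure D3:**
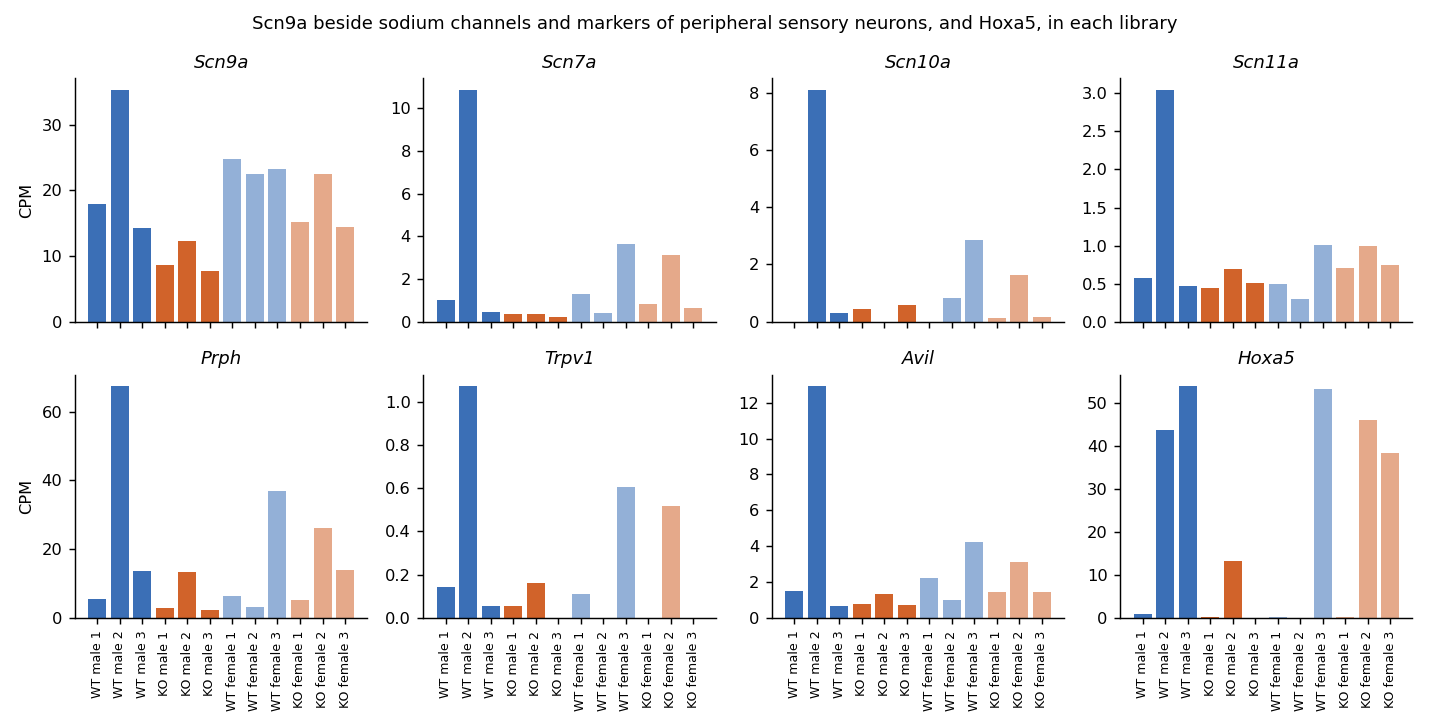
CPM in each of the 12 libraries of Scn9a, of the sensory channel genes Scn7a, Scn10a and Scn11a, of the sensory neuron markers Prph, Trpv1 and Avil, and of Hoxa5 (bars from 0, blue WT, orange KO, darker bars male). WT male 2 is the highest bar in every panel but that of Hoxa5, whereas Scn9a stays at 7.74 CPM or more in libraries where Scn10a is near 0.

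Among the β subunits, Scn3b fell in the KO brains. It was at 176, 214 and 197 CPM in WT males and at 147, 174 and 146 CPM in KO males. WT females held 180, 167 and 174 CPM and KO females 137, 141 and 127 CPM. Every KO library lay below every WT library of its sex. The log2 fold change was −0.33 in males (SE 0.0945, adjusted p = 0.249) and −0.36 in females (SE 0.0852, adjusted p = 0.377). Over both sexes it was −0.35 (SE 0.0624, 95% interval −0.48 to −0.21, adjusted p = 0.0104, all by edgeR), so that Scn3b fell by 21.5%. The sexes differed by 0.03 in this effect (SE 0.128, edgeR adjusted p = 0.988).

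The call of Scn3b held when any 1 of the 12 libraries was left out (edgeR adjusted p from 0.00593 to 0.0374). It was lost with the mean level of the neuron markers as a covariate (log2 fold change −0.25, edgeR adjusted p = 0.095) and in the 6 Hoxa5-low libraries (−0.30, edgeR adjusted p = 0.248). None of the 14 neuron markers was itself called over both sexes. Their summed level was 8437 to 8766 CPM in WT females and 7818 to 8064 in KO females, and 8477 to 9041 in WT males and 8452 to 8857 in KO males, with a median log2 fold change of −0.126. In bulk tissue, fewer neurons and less Scn3b RNA in each neuron cannot be told apart.

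Scn2b, a β subunit linked to the pore by a disulfide bond, was at 12.8, 14.9 and 11.3 CPM in WT males and at 11.8, 11.2 and 13.1 CPM in KO males. In females it was at 15.8, 14.4 and 16.2 CPM in WT and at 11.6, 13.6 and 13.4 CPM in KO. The genotypes overlapped in males and not in females. The log2 fold change was −0.11 in males (SE 0.123, edgeR adjusted p = 0.771), −0.27 in females (SE 0.106, adjusted p = 0.632) and −0.19 when all 12 libraries were used (SE 0.08, adjusted p = 0.317). Scn4b, the β subunit of resurgent currents in mature neurons, was barely transcribed, with 12 to 84 counts in a library. WT male 2 held its highest value, 1.41 CPM, and the other 11 libraries lay between 0.296 and 0.674 CPM. Its log2 fold change over both sexes was −0.29 (SE 0.341, edgeR adjusted p = 0.780), and without WT male 2 it was 0.07.

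**Figure D4:**
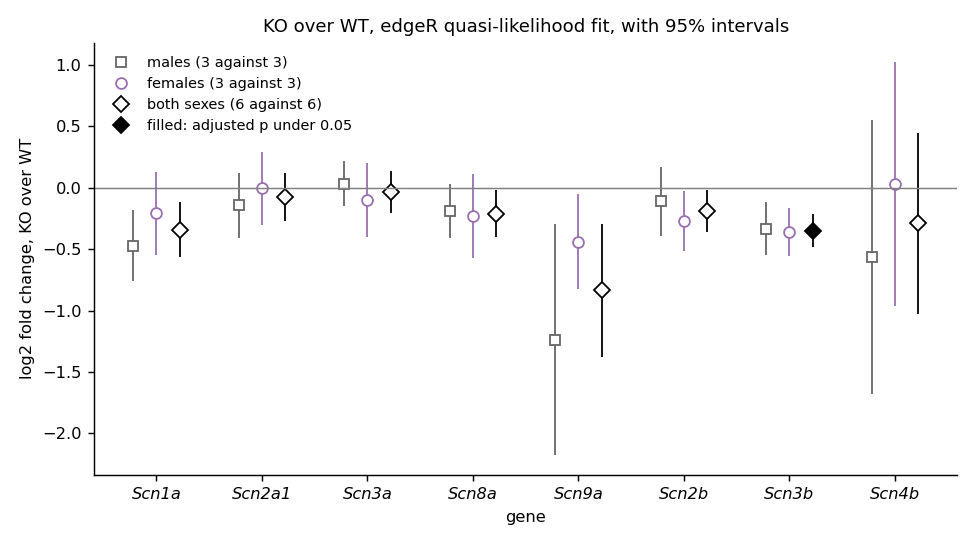
Log2 ratio of KO to WT for the 8 genes in males (squares), females (circles) and both sexes together (diamonds), with 95% intervals derived from the edgeR test. The filled symbol, Scn3b over both sexes, is the only value with an adjusted p under 0.05, and the interval of Scn9a is the widest among the pore genes.

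Counted by separation, every KO library lay below every WT library for 3 of 8 members in males (Scn1a, Scn9a and Scn3b), where 8.44% of all genes tested did so, and for 3 of 8 in females (Scn9a, Scn2b and Scn3b), where 6.24% did so. Scn9a and Scn3b, 2 of 8 members, were so separated in both sexes, against 2.25% of genes. No member had every KO library above every WT library in either sex, where 8.87% of genes in males and 7.57% in females did.

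The members varied in part together. As a description over the 12 libraries, which differ in genotype, sex and tissue markers, the Pearson correlation of log2 CPM was 0.911 for Scn1a and Scn9a, 0.82 for Scn1a and Scn8a and −0.177 for Scn3a and Scn3b. After the group means were taken away it was 0.727, 0.722 and 0.106 for the same pairs. Of 15052 genes compared, those most like Scn3b over the 12 libraries were Samd12 (r = 0.975), Ablim3, an actin-binding LIM protein (r = 0.973), and Paqr9, a membrane protein of the progestin and adipoQ receptor family (r = 0.967). After the group means were taken away, r with Scn3b was 0.953 for Samd12, 0.923 for Ablim3 and 0.853 for Paqr9. Their log2 fold changes over both sexes were −0.44 for Samd12 (edgeR adjusted p = 0.0574), −0.48 for Ablim3 (adjusted p = 0.0110) and −0.51 for Paqr9 (adjusted p = 0.00509). These genes were picked over libraries of both genotypes, so the choice itself favoured genes that were lower in KO, as Scn3b was.

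Of the 8 members, 1 was called between male and female libraries. Scn3a was lower in males, with a log2 difference of −0.23 (SE 0.0786, edgeR adjusted p = 0.0490), where 12.9% of all genes were lower and 10.9% higher in males. The male and female counts came as separate tables, so sex and any batch that goes with it cannot be told apart. The call held in 3 of the 12 fits that leave out 1 library (the fits that lacked WT male 2, KO female 2 or WT female 3) and was lost in the other 9, with adjusted p up to 0.127. It was also lost with the neuron markers as a covariate (edgeR adjusted p = 0.0633) and without a filter (edgeR adjusted p = 0.0697).

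Of the other genes within the chromosome 2 cluster, those with enough counts to be tested were not called. Csrnp3, a transcription factor gene between Scn2a1 and Scn1a, had a log2 fold change over both sexes of 0.17 (SE 0.096, edgeR adjusted p = 0.468). Galnt3, a glycosyltransferase gene, was at 0.05 (edgeR adjusted p = 0.952) and Ttc21b, a gene of ciliary transport, at 0.03 (adjusted p = 0.883). The noncoding Gm13630, with 0 to 15 counts in a library, was at −0.49 (SE 0.923, edgeR adjusted p = 0.881). The antisense gene Gm13629 shares 180 of the 12772 exon bases of Scn9a. It held 0 to 5 counts in a library, against 452 to 2108 for Scn9a. The strand setting of the counting is not stated, so reads of this overlap may have been given to either gene.

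Of the 6 sodium channel genes outside the members, 0 of 5 tested were called over both sexes. Scn11a, a channel of pain-sensing neurons, was at −0.47 (SE 0.519, adjusted p = 0.763). Scn7a was at −1.86 (SE 1.07, adjusted p = 0.498) and Scn10a at −2.0005 (SE 1.42, adjusted p = 0.604), with WT male 2 as the highest library of both. Scn4a, the channel of skeletal muscle, was at 0 to 0.218 CPM and was not tested. Without WT male 2 the value of Scn11a was 0.28.

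Proteins that bind the channel inside the cell were described by a list of 11 genes. Of these, 1 was called lower and 0 higher over both sexes (median −0.047), where 1.52% and 0.374% of all genes were. The called gene was Fgf12, an intracellular fibroblast growth factor homolog that binds the tail of the pore subunit. It was at 22.3, 31.5 and 27.7 CPM in WT males and at 16.7, 18.9 and 13.0 CPM in KO males. In females it was at 21.6, 20.2 and 25.8 CPM in WT and at 15.4, 20.8 and 15.51 CPM in KO. Every KO male lay below every WT male, as for 8.44% of all genes tested, and KO female 2 lay among the WT females. Over both sexes the log2 fold change was −0.57 (SE 0.127, edgeR adjusted p = 0.0376). The call was lost in 9 of 12 fits that leave out 1 library (all but WT female 2, KO female 2 and WT male 1, with adjusted p up to 0.105), with the neuron markers as a covariate (−0.28, edgeR adjusted p = 0.132) and in the Hoxa5-low libraries (−0.51, edgeR adjusted p = 0.268). Its relatives Fgf14 (−0.25, edgeR adjusted p = 0.124) and Fgf13 (−0.20, adjusted p = 0.312), chosen after their values were seen, did not pass the test.

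The sodium leak channel complex sets the resting current of neurons. Over both sexes 1 of its 4 genes was called lower and 0 higher (median −0.245), where 1.52% and 0.374% of all genes were. Fam155a, an accessory subunit of this channel, was at 45.4, 52.1 and 48.8 CPM in WT males and at 38.7, 42.3 and 38.0 CPM in KO males. WT females held 57.6, 50.6 and 49.3 CPM and KO females 38.4, 37.9 and 39.6 CPM. Every KO library lay below every WT library. Within each sex taken alone, a looser criterion, 2.25% of genes were so separated in both sexes. The log2 fold change of Fam155a over both sexes was −0.37 (SE 0.0574, edgeR adjusted p = 0.0040). The call held without any 1 library and with the neuron markers as a covariate (edgeR adjusted p = 0.0490), and was lost in the Hoxa5-low libraries (−0.36, edgeR adjusted p = 0.281). The pore gene Nalcn of the same complex was at −0.05 (edgeR adjusted p = 0.868), and Unc80, another subunit, at −0.48 (SE 0.147, edgeR adjusted p = 0.145).

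No gene of 3 further lists of genes on which sodium channels depend was called over both sexes. None of 12 genes of the axon initial segment and node was called (median −0.1), among them Ank3, the scaffold that anchors the channels there (−0.19, edgeR adjusted p = 0.652), and the spectrin Sptan1 (−0.05, adjusted p = 0.822). The median of this list was 0.057 in males and −0.2 in females, where 12 of 12 genes lay below 0. Its summed level was 4666 and 4548 CPM in WT female 1 and 2 and 3325 to 3757 CPM in the other 10 libraries, and the part of these libraries in the female values was not tested. None of 6 sodium pump genes was called (median −0.217), with the pump subunit Atp1b1 at −0.26 (edgeR adjusted p = 0.482). None of 8 genes of the REST complex, which represses neuronal genes such as Scn2a in other cells, was called (median 0.151). Its most abundant members were Hdac2 at 0.13 (edgeR adjusted p = 0.281) and Ehmt2 at 0.03 (adjusted p = 0.913). Unadjusted p in edgeR's test was under 0.05 for 2 of 12, 1 of 6 and 3 of 8 genes of these 3 lists. Of all genes tested, 2708 of 19767 had such a p.

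**Figure D5:**
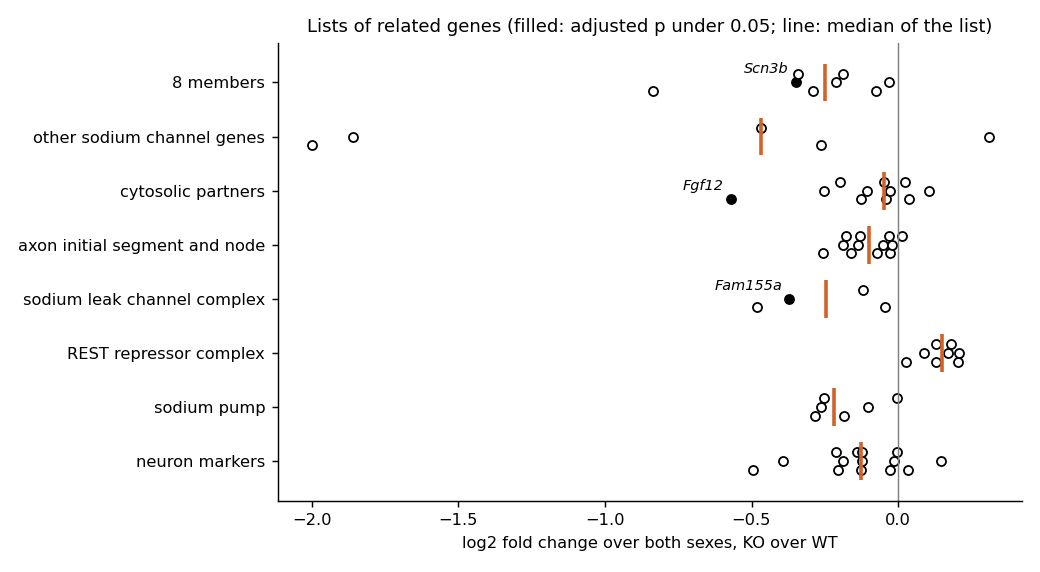
Log2 ratio of KO to WT over both sexes for the genes tested in each list (circles, filled where the edgeR adjusted p was under 0.05) with the median of each list as a vertical line. The called genes are Scn3b, Fgf12 and Fam155a, all lower in KO, and all 8 genes of the REST complex lie above 0.

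The markers of other cell types were not called in either direction over both sexes. Median log2 fold changes were 0.113 for 11 neural progenitor markers, −0.297 for 5 oligodendrocyte precursor markers, −0.182 for 8 microglia markers, −0.069 for 7 endothelial markers, −1.154 for 8 peripheral sensory neuron markers, −0.746 for 12 Hox genes and −0.014 for the 3 muscle markers tested. The medians of the Hox genes were −2.306 in males, with 12 of 12 below 0, and 0.784 in females, with 12 of 12 above 0. Those of the peripheral sensory neuron markers were −1.873 in males and −0.168 in females. Among genes at an unadjusted p under 0.05 over both sexes were 3 of 5 oligodendrocyte precursor markers, 1 of 8 microglia markers and 4 of 14 neuron markers. Of all genes tested, 2708 of 19767 had such a p in edgeR's test. The part of these shifts in the values of the sodium channel genes was not tested beyond the covariates given above.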

How the data were processed

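The 12 RNA-seq libraries were made from brains of Nsd2 KO and WT embryos at E15.5. The deposited counts are whole numbers per gene without normalization. The authors depleted ribosomal RNA, trimmed reads with cutadapt 2.6, aligned them to mm10 with HISAT2 2.1.0 and quantified transcripts with StringTie 2.0.6. They extracted the gene counts from the StringTie output. Which kit version or sequencer each library had, and the strand setting, are not stated. Intervals from these counts cover counting error and the spread between libraries, and PCR copies were not marked.

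Counts were analysed in R 4.3.3 with edgeR 4.0.16 (TMM, filterByExpr with at least 10 counts, robust quasi-likelihood F test, Benjamini-Hochberg threshold 0.05). Members passed this filter in each fit. Each SE was derived from this test, as the absolute log2 fold change divided by the square root of F. The 95% intervals used this SE and the t distribution. CPM used TMM library sizes, and correlations used log2 CPM with a prior count of 2. Whsc1 was left out of counts over all genes. Exon lengths, positions and transcripts came from GENCODE M21 on GRCm38. Some genes of the lists and the sequences of the members are not reported here.

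The members and lists were chosen with earlier results of these data known. All members, other sodium channel genes, tested neighbours in the cluster, called genes of each list (else its 2 most abundant), and the 3 genes most like a called member (mean CPM of at least 1) were to be named. Other genes are named after their values were seen. For the marker lists, medians stand in place of named genes.

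Each fit was repeated with RLE normalization, with DESeq2 1.42.0, with the likelihood ratio and exact tests of edgeR, without the filter or with 1 CPM required in 3 libraries, with the replicate number as a block, with Hox gene or neuron marker level as a covariate, with dispersions from all 12 libraries, and without single libraries. The sensory marker covariate, the 6 libraries with under 1 CPM of Hoxa5 and the alternatives for male versus female libraries were added after seeing the data. Replicates of a group differed by far more than counting noise (chi-square per gene 25 to 279). Figures were drawn with matplotlib.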

Additional observations from a re-analysis of the deposited data

How the results depend on the processing

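Members called lower numbered 0 in males, but 1 with DESeq2, 1 with edgeR's exact test and 2 with the replicate block. In females they numbered 0, but 1 with DESeq2. Over both sexes they numbered 1, but 2 with DESeq2, the likelihood ratio test or the sensory marker covariate, 0 with the neuron marker covariate or in the Hoxa5-low libraries, and 1 to 2 with 1 library left out. In male versus female libraries, those lower numbered 1, but 2 with DESeq2 (Scn1a and Scn3a) or the neuron marker covariate (Scn1a and Scn9a), 0 without a filter and 0 to 3 with 1 library left out. Those higher numbered 0, but 1 with DESeq2 or the neuron marker covariate and 0 to 1 with 1 library left out. Of all genes, those called lower numbered 63 in males, but 11 to 88 with 1 library left out and 9 to 361 in the other alternatives. In females they numbered 1, but 0 to 34 and 0 to 129. Over both sexes they numbered 300, but 162 to 315 and 31 to 587. In male versus female libraries they numbered 2545, but 1832 to 2823 and 2020 to 2858. Genes higher there numbered 2147, but 1628 to 2796 and 1616 to 2508. The replicate numbers gave no sign of pairing (same-number correlations of −0.125 to 0.271, 2 of 6 over 0.1). Libraries of unlike number had correlations of −0.372 to 0.355. With 3 libraries a group these values cannot exclude a pairing. The replicate block called Scn9a and Scn3b in males and lost Fgf12 over both sexes (edgeR adjusted p = 0.0731).

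Signs turned only for log2 values that were not called. In males Scn2a1 was 0.0362 (Hox), 0.105 (neuron) and 0.0303 (sensory covariate), and Scn4b 0.166 (neuron) and 0.193 (sensory). In females Scn2a1 was 0.0817 and Scn4b −0.164 (Hox). Over both sexes the neuron covariate gave 0.0409 for Scn2a1, 0.364 for Scn4b, 0.306 for Scn7a, 0.444 for Scn10a and 0.768 for Scn11a, the sensory covariate 0.133 for Scn4b and 0.354 for Scn11a, and the Hoxa5-low libraries 0.0506 for Scn2a1, 0.145 for Scn4b, 1.01 for Scn10a and 0.277 for Scn11a. The difference between the sexes was −0.143 for Scn8a (Hox) and 0.0268 for Scn4b (sensory), and male minus female was −0.0166 for Scn2a1 (neuron). With 1 library left out, male values ran from −0.0303 to 0.122 for Scn3a, −0.201 to 3e-04 for Scn2b and −0.829 to 0.117 for Scn4b. Female values ran from −0.0746 to 0.122 for Scn2a1, −0.219 to 0.0179 for Scn3a and −0.228 to 0.4448 for Scn4b. Values over both sexes ran from −0.072 to 0.0274 for Scn3a, −0.429 to 0.0714 for Scn4b and −0.695 to 0.277 for Scn11a. The difference between the sexes ran from −0.0697 to 0.179 for Scn8a, −0.0426 to 0.0901 for Scn3b and −1.03 to 0.0875 for Scn4b, and male minus female from −0.0401 to 0.0641 for Scn2a1. The causes were not tested.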
